A study of Mus musculus with 8 samples.

Results

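The major urinary protein (Mup) genes were followed in liver RNA of male db/db mice, with 4 mice given control and 4 given AF1 peptide. The rows of the deposited table under the symbols Mup1, Mup2, Mup3, Mup7, Mup10, Mup17, Mup20 and Mup21 were taken, which made 8 of the 21532 genes in the table. A further 18 rows carried another Mup number or the name of a Mup pseudogene. All 8 mice were homozygous for db, a mutation that removes the working leptin receptor, and so both groups were obese and diabetic. Per the study's methods, dosing began at 8 weeks of age, and each mouse received 2 injections a week of either agent, at a dose of 5 mg/kg, over 5 weeks. AF1 peptide was designed from the activation function 1 domain of estrogen receptor alpha. Lean or uninjected mice were not analysed here, so the values describe treated against control db/db livers only.

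Major urinary proteins are small lipocalins, proteins with a barrel-shaped pocket, that hepatocytes secrete into the blood and the kidney passes into urine. They carry volatile pheromones in scent marks, and MUP20, also called darcin, acts as a pheromone itself. In mice the genes form a cluster of many close copies on chromosome 4, and most are known for higher expression in male liver, where pulses of growth hormone act through STAT5. Circulating MUP1 has also been described as a signal in glucose and lipid metabolism.

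The coding sequences show which of the rows can be told apart. Those of Mup1, Mup2, Mup7, Mup10 and Mup17 are nearly the same, and Mup3, Mup20 and Mup21 differ from them. The 75 bases below are the window with the most variable positions (27) when the coding sequences of the 8 members are aligned from the stop codon, and they correspond to coding bases 226 to 300 of Mup2. They come from the GENCODE M21 transcripts, are written 5′ to 3′, and capitals mark bases that differ from the most common base among the 8 members.
Mup1: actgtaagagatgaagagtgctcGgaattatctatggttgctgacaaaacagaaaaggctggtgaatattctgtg
Mup2: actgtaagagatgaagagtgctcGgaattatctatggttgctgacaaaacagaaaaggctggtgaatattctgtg
Mup3: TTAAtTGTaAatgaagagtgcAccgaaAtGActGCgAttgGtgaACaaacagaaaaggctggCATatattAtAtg
Mup7: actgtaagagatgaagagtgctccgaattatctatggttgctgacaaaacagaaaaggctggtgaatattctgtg
Mup10: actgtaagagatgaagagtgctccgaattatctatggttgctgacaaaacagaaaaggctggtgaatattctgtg
Mup17: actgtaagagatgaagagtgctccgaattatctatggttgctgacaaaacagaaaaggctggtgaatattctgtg
Mup20: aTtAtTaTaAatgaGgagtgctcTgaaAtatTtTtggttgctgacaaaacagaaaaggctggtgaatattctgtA
Mup21: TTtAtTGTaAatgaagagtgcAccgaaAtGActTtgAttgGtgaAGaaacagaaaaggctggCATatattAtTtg

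Within this window Mup7, Mup10 and Mup17 carried no capital, Mup1 and Mup2 carried 1, Mup20 carried 11, Mup21 carried 21 and Mup3 carried 23. Over the 489 coding bases compared, pairs among Mup1, Mup2, Mup7, Mup10 and Mup17 differed at 2 to 6 bases (98.8% to 99.6% identity). Every other pair of members differed at 15 to 79 bases (83.8% to 96.9% identity), and the closest of these pairs was Mup3 with Mup21. A sequencing read from one of the 5 close copies can therefore match several genes equally well.

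Cut into overlapping words of 50 bases, all 100% of the Mup2 transcript also occurred in the transcript of some other gene. The same share was 96.4% for Mup7, 94.8% for Mup1, 86.2% for Mup10 and 78.1% for Mup17. It was 50.4% for Mup20, nearly all of it shared with the pseudogene Mup-ps19 (48.0%). Mup21 (19.3%) and Mup3 (15.6%) shared the least, so their rows rest mostly on sequence of their own.

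**Figure D1:**
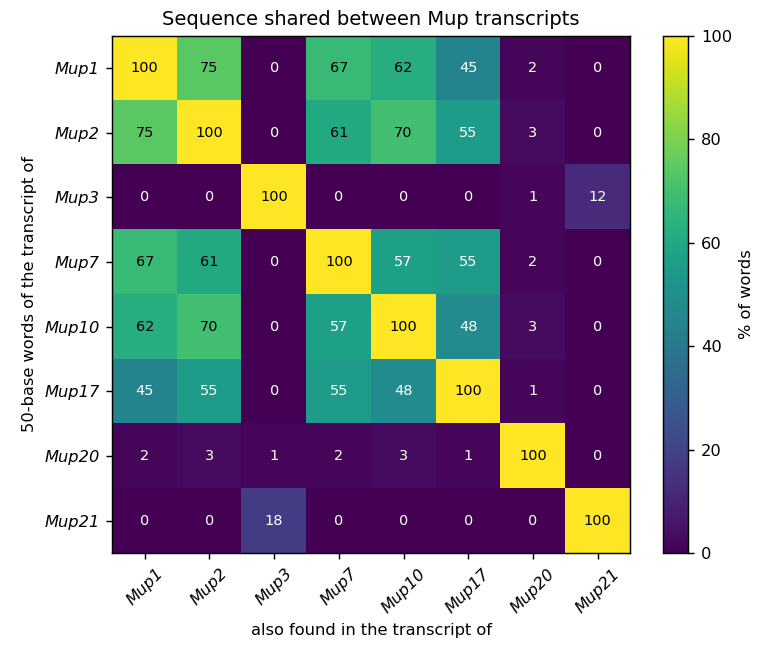
Percent of the 50-base words of each member's transcript (rows) that also occur in the transcript of another member (columns). Mup1, Mup2, Mup7, Mup10 and Mup17 form a block that shares sequence, while Mup3, Mup20 and Mup21 share little with that block.

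The counts showed the same sharing. Mup2 held 2588, 963, 2570 and 548 reads in control replicates 1 to 4, and the row of Mup13 held 2534, 939, 2540 and 545. Over the 8 mice the 2 rows differed by less than sampling noise, with a chi-square of 0.159 per degree of freedom where separately sampled reads would give about 1. Likewise the value was 0.066 for Mup10 with Mup22, 0.116 for Mup1 with Mup8 and 0.12 for Mup7 with Mup15. Between Mup2 and Mup10 themselves it was 1.652. The rows paired in this way hold largely the same reads. The ratio of Mup1 to Mup2, by contrast, ran from 0.27 to 1.16 over the 8 livers, so these copies did not hold the same reads throughout. The 5 close copies are therefore read here as overlapping measurements and not as 5 separate genes.

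Of the 6 members with an entry in the RefSeq promoter table, 5 carried the letters TATATAA near the annotated start. These windows are shown because they let the promoters of the copies be set beside those of Mup3 and Mup21. They come from the GRCm38.p6 assembly, lie on the minus strand of chromosome 4, are written 5′ to 3′ along the gene and have the letters TATATAA in capitals.
Mup2, chr4:60139862-60139928: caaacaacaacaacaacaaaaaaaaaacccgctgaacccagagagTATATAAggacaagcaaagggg
Mup10, chr4:60582164-60582230: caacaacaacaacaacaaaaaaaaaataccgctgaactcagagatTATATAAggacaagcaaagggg
Mup17, chr4:61595836-61595902: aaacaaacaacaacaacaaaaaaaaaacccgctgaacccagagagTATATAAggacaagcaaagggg
Mup3, chr4:62087307-62087373: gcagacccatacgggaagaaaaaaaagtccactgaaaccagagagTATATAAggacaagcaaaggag
Mup21, chr4:62150828-62150894: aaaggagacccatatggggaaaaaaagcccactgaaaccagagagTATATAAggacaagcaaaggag

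The first capital lies 27 bases before the annotated start in Mup2, 30 in Mup10 and 25 in Mup17, but 11 in Mup3 and 8 in Mup21. Compared letter by letter from the capitals, without gaps, Mup2 and Mup17 differed at 3 of these 67 bases, Mup2 and Mup10 at 14, and Mup2 and Mup3 at 19. The repeated caa letters of Mup10 are offset from those of Mup2, and each shifted letter counts as a difference. The counts therefore do not rank how far Mup10 and Mup3 lie from Mup2. TATATAA was searched on both strands and occurred in 3.24% of the 32851 RefSeq promoters of the same length, which span 250 bases before to 50 bases after the start. The spaced letters TTCNNNGAA, the pattern that STAT factors recognise, occurred in 8.30% of those promoters and in 0 of the 6 from members. At that share, 0 of so few promoters, some of them close copies, says little. Sites outside this span were not searched.

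The libraries held 23031880 to 45117528 reads, and the 8 members received between 71 reads (Mup7 in control replicate 4) and 11407 reads (Mup3 in AF1 peptide replicate 4). AF1 peptide replicate 1 stood apart from the other 7 livers. On the first principal component of the tested genes, which held 39.3% of the variance, it lay at 74.25 and the others between -21.8 and 2.33. Results on the members are therefore given with and without this mouse. Levels below are normalized read counts, reads divided by 1 size factor per library, listed for replicates 1 to 4.

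Among the close copies, Mup2 was at 2132.7, 948.3, 2778.1 and 458.9 in control livers and at 553.4, 6334.2, 1293.3 and 4553.1 in AF1 peptide livers. AF1 peptide replicates 2 and 4 exceeded every control, while the other 2 lay within the control range. Mup10, which shares 70% of its transcript words with Mup2, was at 2263.7, 985.7, 2965.1 and 485.7 in control livers and at 515.1, 6942.4, 1321.3 and 5033.4 in AF1 peptide livers. The ratio of Mup10 to Mup2 stayed between 0.93 and 1.11 in the 8 mice.

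Mup1, the member studied as a circulating protein, was at 1121.6, 742.5, 1377.1 and 457.2 in control livers and at 643.0, 2544.3, 678.8 and 1208.5 in AF1 peptide livers. Only AF1 peptide replicate 2 exceeded the highest control. Mup7 ranged from 59.5 to 318.9 in control livers and from 88.7 to 836.5 in AF1 peptide livers, and Mup17 from 129.0 to 639.9 and from 91.5 to 1240.2. For all 5 copies AF1 peptide replicate 2 was the highest liver, and the lowest was control replicate 4 (Mup1, Mup2, Mup7 and Mup10) or AF1 peptide replicate 1 (Mup17). AF1 peptide replicate 2 was also the smallest library, with 23031880 reads and a size factor of 0.5475, where every other library held at least 35099306 reads.

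Mup3, whose row can be separated from the copies, was at 7291.4, 4536.8, 10060.5 and 7538.7 in control livers and at 2853.6, 11609.0, 6445.3 and 10475.4 in AF1 peptide livers. AF1 peptide replicate 1 was the lowest liver and AF1 peptide replicates 2 and 4 the highest, so the treated group enclosed the whole control range. Mup20, the darcin gene, was at 2927.9, 6316.3, 7058.6 and 6208.8 in control livers and at 1173.0, 5152.4, 3504.4 and 10313.8 in AF1 peptide livers. Again the treated livers held both the lowest and the highest value. Mup21 was at 437.6, 287.6, 424.8 and 421.2 in control livers and at 617.8, 316.0, 285.0 and 345.3 in AF1 peptide livers. Its pattern ran against the rest, with AF1 peptide replicate 1 the highest of all 8 livers.

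**Figure D2:**
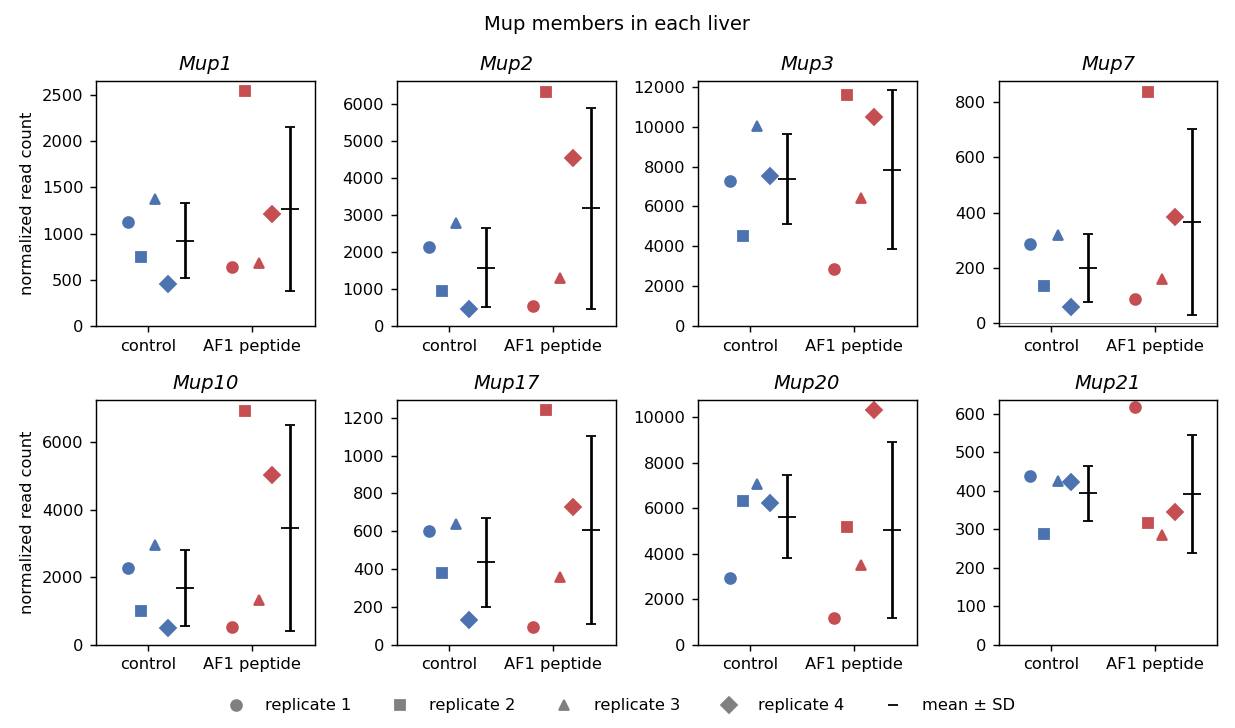
Normalized read count of each member (vertical axis) in the 4 control and 4 AF1 peptide livers, 1 marker shape per replicate number, with the group mean ± SD in black. The groups overlap for all 8 members, and the AF1 peptide group spreads more widely than the control group for each of them.

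In the comparison of AF1 peptide with control, no member passed the test. A gene was called when the limma test on log2(normalized count + 1) gave an unadjusted p under 0.05 and the change was more than 1.3-fold, and 3.69% of the 15989 genes tested were called by that rule, 1.79% higher and 1.90% lower with AF1 peptide. In numbers these were 286 and 304 genes, which became 122 and 603 when the libraries were rescaled to equal totals, and 0 genes passed an adjusted p of 0.05. Of the 8 members, all of which passed the filter on low values, 0 were called, and 0 had an unadjusted p under 0.05 by limma, edgeR or DESeq2. The 2 groups overlapped for 8 of 8 members, where 3.90% of all genes tested showed no overlap. Fold changes below are on the log2(normalized count + 1) scale.

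Mup2 averaged 1579.5 ± 1064.1 (SD, n = 4) in control livers and 3183.5 ± 2726.0 (SD, n = 4) in AF1 peptide livers. Its log2 fold change by limma was 0.75 ± 0.77 (SE), with a 95% interval of -0.95 to 2.45 and an adjusted p of 0.85. By the same limma fit Mup10 gave 0.72 (SE 0.80), Mup7 0.65 (SE 0.69), Mup1 0.34 (SE 0.45) and Mup17 0.17 (SE 0.74). These 5 values are not independent, since the rows share reads. Summing the 16 rows that shared most of their words gave 1 feature with a log2 fold change of 0.64 (SE 0.65) and an adjusted p of 0.85 in limma.

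Mup3 averaged 7356.8 ± 2258.3 (SD, n = 4) in control livers and 7845.8 ± 3998.3 (SD, n = 4) in AF1 peptide livers. Its log2 fold change was -0.04 (95% interval -0.94 to 0.85, limma adjusted p = 0.99), and the sign turned positive with edgeR or DESeq2 on the recovered reads (0.09 and 0.10). Mup20 gave -0.47 (95% interval -1.69 to 0.75, limma adjusted p = 0.86), and Mup21 gave -0.06 (95% interval -0.58 to 0.46, limma adjusted p = 0.97). The median log2 fold change was 0.25 over the 8 members and -0.008 over all genes tested. The intervals of all members but Mup3 and Mup21 reach beyond 1 or -1 on the log2 scale, so for those 6 genes the data do not set aside a change of that size.

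The members varied more between mice than most genes did. The median standard error was 0.62 for the members and 0.17 for all genes tested, and 99.6% of genes had a smaller standard error than Mup10. For Mup2, Mup7, Mup17 and Mup20 the share was 99.5%, 99.2%, 99.4% and 98.0%. Mup21 was the least variable member, with 68.3% of genes below it.

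Leaving out AF1 peptide replicate 1 changed the calls. Mup2 then gave 1.40 (SE 0.61) and Mup10 1.42 (SE 0.62), each with a limma adjusted p of 0.49, so that 2 of the 8 members were called higher, where 2.86% of all genes were called higher without this mouse. The adjusted p of Mup2 ran from 0.49 to 0.99 in limma over the fits with 1 mouse left out. As Mup2 and Mup10 share reads, these are in effect 1 call. Mup7, Mup17 (0.89), Mup1 (0.59) and Mup3 (0.38) also moved upward without that liver and did not pass the test. Mup20 turned from -0.47 to 0.10 and Mup21 moved to -0.30. Leaving out AF1 peptide replicate 2 instead brought Mup2 to 0.23 and Mup10 to 0.17, and turned Mup1 (-0.07) and Mup17 (-0.36) below 0. Without AF1 peptide replicate 4 the value of Mup20 fell to -0.95 (SE 0.47, not called), and without control replicate 4 that of Mup2 was 0.26.

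**Figure D3:**
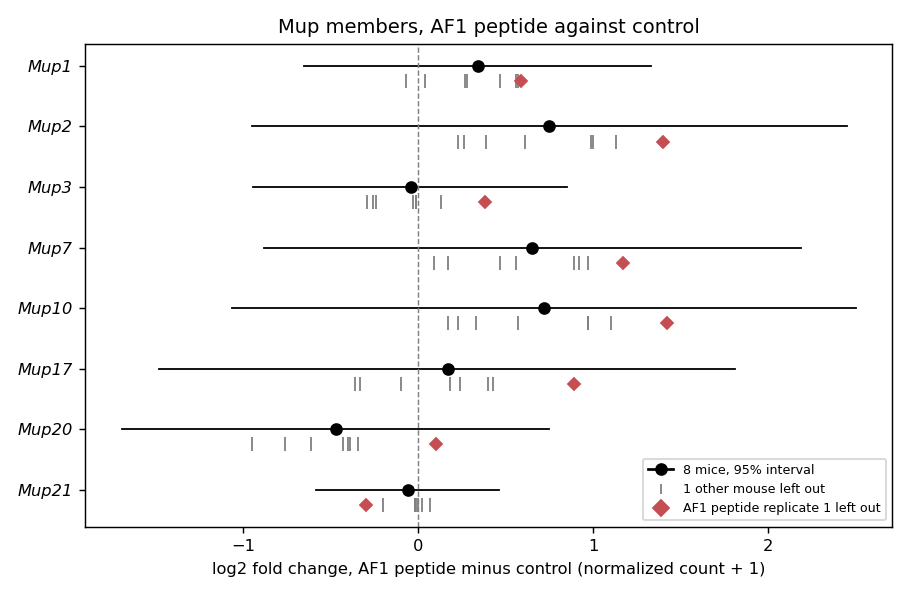
Log2 fold change of each member, AF1 peptide minus control (horizontal axis), with the 95% interval over 8 mice in black, the values with 1 other mouse left out as grey ticks and the value without AF1 peptide replicate 1 as a red diamond. All 8 intervals include 0, and removing AF1 peptide replicate 1 moves every member upward except Mup21.

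Across mice the members fell into a set that moved together and members that did not. Over the 8 livers, Pearson r of the log2 values was 1.00 between Mup2 and Mup10, 0.98 between Mup2 and Mup7, 0.94 between Mup2 and Mup1 and 0.95 between Mup2 and Mup17. These values describe rows that share reads. Mup3, which shares almost no words with Mup2, gave r = 0.77 with it. Mup20 gave r = 0.46 with Mup2 and 0.74 with Mup3, which became 0.17 and 0.32 without AF1 peptide replicate 1. The ratio of Mup20 to Mup2 ran from 0.81 in AF1 peptide replicate 2 to 13.53 in control replicate 4, a 16.63-fold range, so the balance between darcin and the central copies differed greatly from liver to liver. Mup21 gave r of -0.39 with Mup2 and -0.43 with Mup3, which became -0.08 and 0.35 without AF1 peptide replicate 1.

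**Figure D4:**
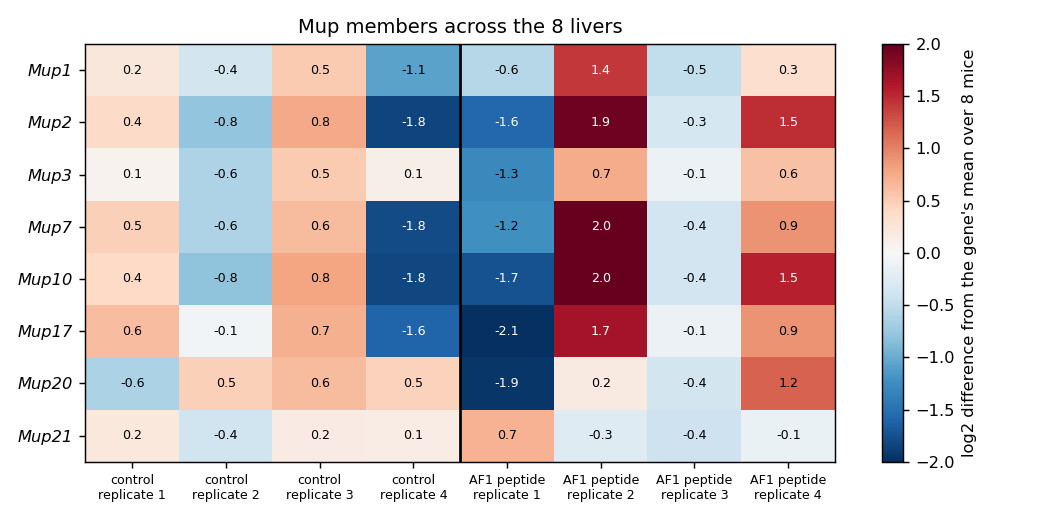
Log2 difference of each member (rows) from its own mean over the 8 livers (columns), with red above and blue below the mean and the line dividing control from AF1 peptide. Mup1, Mup2, Mup7, Mup10 and Mup17 share a pattern, Mup20 keeps a higher level than they do in control replicates 2 and 4, and Mup21 is highest in AF1 peptide replicate 1.

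Per kilobase of transcript, Mup3 stood at the top with a median of 7536 normalized counts over the 8 livers (2900 to 11798), followed by Mup20 at 6121 (1264 to 11114). Mup3 exceeded Mup20 in 6 of 8 mice, and the ranges overlapped, so these neighbours did not differ beyond their spread. Mup10 (1934) and Mup2 (1848) came next, then Mup1 (1005), Mup21 (566), Mup17 (526) and Mup7 (240). Mup20 exceeded Mup10 in 7 of 8 mice, Mup21 exceeded Mup17 in 4 of 8, and Mup17 exceeded Mup7 in 8 of 8. For the close copies the level per kilobase includes reads that other copies could have produced.

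Summed over the 8 rows, the Mup count was 17061, 14328, 25623 and 15759 in control livers and 6536, 34975, 14046 and 33044 in AF1 peptide livers. Reads that match several copies may enter this sum more than 1 time, since how they were counted is not given. Control livers averaged 18193 ± 5078 (SD, n = 4), and AF1 peptide livers averaged 22150 ± 14055 (SD, n = 4), a difference well inside the spread. On the log2 scale the mean difference was 0.03, and with Mup2, Mup3, Mup20 and Mup21 alone it was -0.09. Without AF1 peptide replicate 1 the difference of the 8-row sum was 0.51, without AF1 peptide replicate 2 it was -0.29 and without AF1 peptide replicate 4 it was -0.26, so its direction rested on single mice. Mup3 made up 31.7% to 47.8% of the sum in the 8 livers, and Mup20 made up 17.2% to 44.1% in control and 14.7% to 31.2% in AF1 peptide livers. The whole sum was 0.02% to 0.0845% of the table, and the count of Alb, the serum albumin gene, was 53.9 to 187 times as large.

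Of the other 18 Mup rows, 17 passed the filter on low values and 0 were called. Their log2 fold changes ran from -0.39 (Mup-ps19) to 0.74 (Mup13), and the smallest unadjusted limma p was 0.216 (Mup18). Mup6 had at most 8 reads in any liver and was not tested. The row of the pseudogene Mup-ps16 held 9224.4 to 14761.4 normalized counts, above Mup3 in 8 of 8 livers, and varied little (log2 fold change 0.07, SE 0.17). Of its 50-base words, 89.3% also occur in some other gene, and at most 51.9% in any 1 other Mup row.

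The share of reads from the 13 mitochondrial genes moved with the copies and in part with Mup3. It was 29.2%, 26.8%, 34.3% and 22.4% in control livers and 20.8%, 37.8%, 34.3% and 36.1% in AF1 peptide livers. AF1 peptide replicates 2 and 4, the livers with the most Mup2, also had the highest mitochondrial shares, and control replicate 4 and AF1 peptide replicate 1, those with the least Mup2, had the lowest. Mup3 was also highest in AF1 peptide replicates 2 and 4 and lowest in AF1 peptide replicate 1, but control replicate 4 ranked 4 from the top. Mup20 was lowest in AF1 peptide replicate 1 and highest in AF1 peptide replicate 4. Its other livers did not line up in this way, since control replicates 2 and 4 combined a low mitochondrial share with high Mup20. The part of the mitochondrial share in the Mup values was not tested. By group the share averaged 28.2% ± 5.0 (SD, n = 4) with control and 32.2% ± 7.8 (SD, n = 4) with AF1 peptide.

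**Figure D5:**
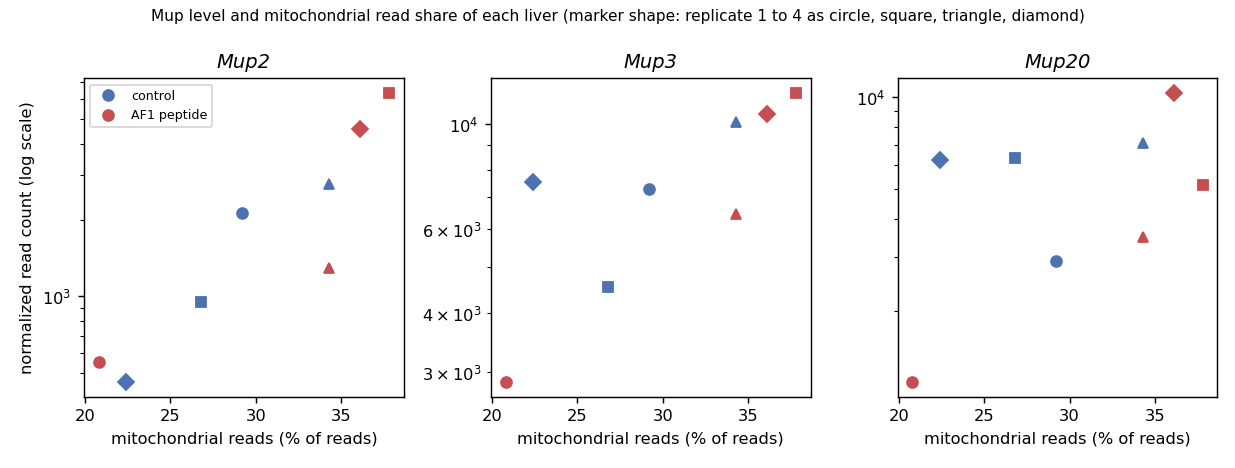
Normalized read count of Mup2, Mup3 and Mup20 (vertical axes, log scale) against the percent of reads from mitochondrial genes (horizontal axes) in control (blue) and AF1 peptide (red) livers. Mup2 is lowest in the 2 livers with the lowest share and highest in the 2 with the highest share. Mup3 is also highest in the 2 livers with the highest share. Mup20 is lowest in the liver with the lowest share, but it is high in control replicates 2 and 4, where the share is low.

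Genes of growth hormone signalling, its targets included, and listed regulators were read from the same fit. Of 10 genes of growth hormone and STAT5 signalling, 2 were called higher with AF1 peptide and 0 lower, where 1.79% of all genes tested were called higher; the lists that follow are read against the same share. Igf1, the growth factor that liver makes under growth hormone, was at 9341.6, 7314.8, 11114.4 and 7677.7 in control livers and at 14583.6, 13696.6, 10530.4 and 11585.7 in AF1 peptide livers. It rose by 0.52 on the log2 scale (SE 0.16, limma adjusted p = 0.76) and remained called with any 1 mouse left out. Igfals, which encodes part of the complex that carries IGF1 in blood, rose by 0.46 (SE 0.17, limma adjusted p = 0.76). That call was lost without control replicate 2, AF1 peptide replicate 1 or AF1 peptide replicate 2 (0.34 to 0.57 over all mice left out in turn). It was also lost when rescaled to equal totals (0.37) or with its own variance. The receptor gene Ghr gave 0.00 (SE 0.15) and the feedback inhibitor Socs2 0.30 (SE 0.35). AF1 peptide replicate 1 had the most Igf1 of the 8 livers while holding the least Mup3 and Mup20. By contrast, AF1 peptide replicate 2 had the next highest Igf1 and the most Mup3. A relation between Igf1 and the Mup levels was not tested.

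Of 13 transcription factors listed as regulators of Mup genes or of sex differences in liver, 1 was called. Esr1, which encodes estrogen receptor alpha, the protein the peptide derives from, rose by 0.55 (SE 0.24, limma adjusted p = 0.76). The call was lost without control replicate 1, 2 or 4 and without AF1 peptide replicate 1 or 2 (0.32 without AF1 peptide replicate 1, whose level of 520.7 was the highest), at equal totals (0.46), without the variance trend and with its own variance. The glucocorticoid receptor gene Nr3c1 gave -0.05 (SE 0.11) and Hnf4a, a hepatocyte regulator, 0.03 (SE 0.12).

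Genes with higher expression in male liver gave 1 call among 14 tested of 15 listed. C8a, a complement component, rose by 0.43 (SE 0.18, limma adjusted p = 0.76), and the call was lost with any 1 mouse left out except control replicate 3 or AF1 peptide replicate 1 (0.28 to 0.58), at equal totals (0.34) with or without mitochondrial and Mup genes (0.43 without them), without the variance trend and with its own variance. Genes with higher expression in female liver gave 1 call among 17. Acot3, a peroxisomal thioesterase, rose by 0.58 (SE 0.23, limma adjusted p = 0.76), and that call was lost without control replicate 1, control replicate 2 or AF1 peptide replicate 3 (0.41 to 0.81 over all mice left out), at equal totals (0.49), with its own variance and with edgeR (0.52). The median log2 fold change was 0.01 over the male list and 0.09 over the female list.

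The liver with the least Mup3, Mup17 and Mup20 was also high in genes of the female list, a feature looked at after its values were seen. In AF1 peptide replicate 1, 11 of the 17 female-biased genes had their highest value of the 8 livers and 1 had its lowest. Of the 13 listed regulators, 7 had their highest value there and 3 their lowest. Cux2 is in both lists and is counted in each. That liver held the highest value for 25.9% of all genes tested and the lowest for 23.4%. Cux2, a transcription factor that is normally prominent in female liver, was at 4101.3 there and at 116.6 to 812.2 in the other livers, and A1bg was at 1976.5 against 126.5 to 305.7. Of the 14 male-biased genes tested, 5 had their highest value in that liver and 3 their lowest, so the male list did not move as a whole. Among those 5, C8b was at 1346.6 there and at 137.9 to 246.2 in the other livers. The 4 Y-linked genes listed summed to 1801 to 2144 normalized counts over the 8 livers, so all 8 carried Y-linked transcripts as the label male gives.

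Among 12 other lipocalin genes, 10 were in the table, 9 were tested and 0 were called. The 3 with the smallest p were Ptgds, a prostaglandin synthase (log2 fold change 1.20, SE 0.75), Lcn2, an acute-phase protein (0.31, SE 0.29), and Orm1, another acute-phase protein (0.16, SE 0.18). Ptgds was low, at 2.5 to 67.0 normalized counts.

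Outside the family, the genes whose log2 level was most like the summed Mup count over the 8 mice, among 12418 genes with a mean of at least 50, were Primpol (r = 0.975), Ogg1 (0.962), Thumpd2 (0.955), Gypc (0.943) and Psmb9 (0.941). Those most opposite were Cops8 (-0.981), Sap30bp (-0.955), Cox11 (-0.943), Ccar2 (-0.943) and Nit1 (-0.942). These r values describe the top of a long list in 8 libraries that differ in depth and mitochondrial share, and without AF1 peptide replicate 1 they ran from 0.867 to 0.949 and from -0.960 to -0.872. Primpol ranged from 151.2 in AF1 peptide replicate 1 to 264.8 in AF1 peptide replicate 2, a 1.75-fold range, where Mup1, Mup2, Mup7, Mup10 and Mup17 ranged from 5.56-fold to 14.29-fold.

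The tissue matched its label. Of 8 hepatocyte markers, 7 were in the table, 0 were called, and their summed level was 2417760 to 2524361 in control and 1613794 to 2529291 in AF1 peptide livers. Alb was lowest in AF1 peptide replicate 1 (1224160). Of 8 Kupffer cell markers, 1 was called lower (Adgre1, log2 fold change -0.66, SE 0.27, limma adjusted p = 0.76), with sums of 6422 to 8024 and 2785 to 7501. Of 7 stellate cell markers, 1 was called lower (Dcn, -0.42, SE 0.18, limma adjusted p = 0.76), with sums of 4829 to 6887 and 3691 to 7787. Over all genes tested, 1.9% were called lower. The log2 fold change was negative for 7 Kupffer cell markers and positive for 1. It was negative for 3 stellate cell markers and positive for 4. None of the 7 endothelial, 5 tested cholangiocyte or 5 red cell markers was called, and their sums were 5020 to 5744, 1193 to 1799 and 34147 to 123375 in control livers and 4452 to 5703, 804 to 2293 and 27111 to 51923 in AF1 peptide livers. Of 9 pancreas and 5 adipose markers, 2 each were in the table, 1 each was tested and 0 were called, with sums of at most 258 and 104. The part of cell composition in the Mup values was not tested, and in whole liver RNA fewer cells of a type and less RNA per cell cannot be told apart.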

How the data were processed

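Total liver RNA of 4 control and 4 AF1 peptide db/db mice was made into stranded mRNA libraries and sequenced. Per the study's methods and the submitters' processing notes, the authors trimmed reads with Trim Galore 0.6.7, aligned them with HISAT2 to mm39, used SAMtools 1.17 for sorting, and obtained gene counts from GenomicAlignments. Which annotation and strand setting were used, and how multi-mapping reads were treated, are not given in the sources used here. The authors deposited 1 signal value per gene and mouse, reads divided by a size factor per library, and 100% of the values gave whole reads within 0.01. Size factors were 0.5475 to 1.2139. Chi-square per degree of freedom between replicates was 12.2 to 264.2, so no library was counted as a duplicate. The mice are labelled biological replicates.

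The 15989 of 21532 genes that averaged 10 normalized counts or more were fitted with limma 3.58.1 in R 4.3.3 on log2(value + 1), with moderated variances, an intensity trend and no covariates, two-sided, and p-values were adjusted by Benjamini-Hochberg over all of them. This test was checked on simulated data in which all genes had the same relative spread, so the check does not cover genes as variable as the members. Alternatives fitted the recovered reads with edgeR 4.0.16 or with DESeq2 1.42.0 and used other pseudocounts (0.5 and 5), filters, scalings, variances and thresholds, the replicate number as a block, and each mouse left out. Sequences came from GENCODE M21 transcripts (1 principal transcript per gene) and RefSeq promoters of GRCm38.p6. The files' own build, mm39, was not used for coordinates.

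The members and gene lists were chosen with earlier results of these data known. Genes named with values were the members, the called genes of each pathway list or otherwise the 3 with the smallest p, and the 5 most and 5 least correlated with the summed Mup count. Ghr, Socs2, Nr3c1, Hnf4a, Cux2, A1bg, C8b, Adgre1 and Dcn were named outside this rule after their values were seen. Correlations, sums and shares are descriptions without a test.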

Additional observations from a re-analysis of the deposited data

Results flagged for a closer look

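In 34 groups of 4 mice (the 8 members, their sum and 8 other named genes in both treatments), 2 held a mouse far from the other 3 by Dixon's criterion, where chance gives about 1 in 20 groups. Mup21 in control replicate 2 was at 287.6 normalized counts, against 421.2 to 437.6 in the other controls. Lcn2 in control replicate 2 was at 2729.8, against 1014.1 to 1243.1 in the other controls.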

How the results depend on the processing

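No member was called under the alternatives run except without AF1 peptide replicate 1, so the number called higher ran from 0 to 2 with each mouse left out. Mup2, Mup7 and Mup10 stayed positive in every alternative. Left-out mice moved the log2 fold change of Mup1 from -0.07 to 0.59, of Mup3 from -0.29 to 0.38, of Mup17 from -0.36 to 0.89, of Mup20 from -0.95 to 0.10 and of Mup21 from -0.30 to 0.07, and turned each of them at least 1 time. Mup3 also turned to 0.09 with edgeR and 0.10 with DESeq2; the cause was not tested. Over all genes, the counts higher and lower (286 and 304) were 435 and 459 with no filter, which tests more genes, 122 and 603 at equal totals, 506 and 484 with no fold threshold, and 0 and 0 at an adjusted p under 0.05 in limma (990 at an unadjusted p under 0.05), where edgeR gave 0 and DESeq2 gave 3. With each gene's own variance 197 were lower. Left-out mice gave 201 to 457 higher and 172 to 486 lower, with the lowest count lower without control replicate 2 and both highest counts without AF1 peptide replicate 1. The summed Mup difference of 0.03 moved by less than the spread between mice (1 SD) in every alternative, but it ran from -0.29 without AF1 peptide replicate 2 to 0.51 without AF1 peptide replicate 1 and so changed sign; the alternatives include the added sum over Mup2, Mup3, Mup20 and Mup21, chosen after seeing the data. Same-numbered mice correlated at -0.064 to 0.235 (mean 0.103) in their deviations from the group means, and differently numbered mice at a mean of -0.034. Of the 8 mice, 4 correlated best with their own number. These values do not settle whether the numbers pair the mice, and the labels name no pairs, so the main fit was unpaired. With the replicate block 341 genes were higher and 392 lower, and 0 members were called. Reads that match several copies limit Mup1, Mup2, Mup7, Mup10 and Mup17, and 4 mice per group limit all members.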
